A study of Mus musculus with 30 samples.

Results

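The comparison described here is between osteoclast cultures of Terc-/- mice (KO) whose donors were 6 months old and KO cultures whose donors were 1 month old. Its members were chosen by sample title: 3 libraries of 6-month donors and 3 of 1-month donors, all without the prefix 519, or 6 of the 30 libraries in the series. The labels give strain C57BL/6J for every sample. Bone marrow-derived macrophages were differentiated with RANKL (100 ng/ml) and M-CSF (25 ng/ml), in medium with 10% FBS, until large multinucleated cells appeared. By these descriptions the 2 groups share genotype, strain, cytokines and stage, and differ by donor age. Levels of osteoclast genes, given below, differed between them, and whether the cultures had reached the same degree of osteoclast formation was not tested. They were set beside 2 other pairs of 6-month and 1-month groups, with 3 libraries in each group. The first is KO cultures of the same description whose titles carry the prefix 519 (set 519), which the labels do not explain. The second is wild-type (WT) cultures without the prefix, and without the tag D1 that other 1-month WT titles carry. The stated aim of the study was to ask whether osteoclasts differ in gene expression between donor ages, in WT and in Terc-/- mice.

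Osteoclasts are the cells that resorb bone. They form when macrophage-lineage precursors exposed to M-CSF and RANKL switch on the transcription factor NFATc1, fuse into multinucleated cells, and then secrete acid and the protease cathepsin K onto bone. In the same process macrophage genes and several transcriptional repressors of the osteoclast programme are shut down. Terc is the RNA template with which telomerase extends chromosome ends, and in mice without it telomeres shorten over generations of breeding. The labels give neither the generation of the KO mice nor the sex of the donors, and do not say whether libraries of a group came from separate animals or cultures, so a p-value here speaks of the spread among these libraries only, and that spread could be technical.

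Total counts per library were 22133843 to 23643742 in the 6-month KO group, 17336361 to 22972102 in the 1-month KO group, and 4269798 to 12987993 in set 519. Libraries within a group correlated at 0.9892 or more on the log2 scale in both KO groups. Counts of the 1-month KO libraries differed more among themselves, with a chi-square per degree of freedom of 9.42 to 22.3, than those of the 6-month KO libraries, at 3.28 to 5.48. Gene levels below are counts scaled to an equal library total after TMM normalization (CPM, of a total of 1e6), and every adjusted p is from edgeR's quasi-likelihood test with Benjamini-Hochberg adjustment over 15310 genes and a threshold of 0.05. Fold changes are given as log2(6 months over 1 month) ± standard error unless another scale is named, and values of a group are listed from low to high. Terc (ENSMUSG00000064796, chromosome 3, 96414437-96414859, GRCm38) had 0 counts in all 6 KO libraries, which allows at most 0.0228 CPM over them. It also had 0 counts in the 6-month and 1-month WT libraries, so the counts do not check the genotype. Tert, the protein subunit of telomerase, had 0.184, 0.261 and 0.307 CPM in the 6-month KO libraries, against 0.186, 0.292 and 0.450 CPM in the 1-month KO libraries, and did not pass the test (adjusted p = 0.685).

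Of the 15310 genes, 3011 were higher in 6-month KO cultures, or 19.7%, and 2731 were lower, or 17.8%. Together 37.5% passed the test. At least 2-fold differences were fewer, with 517 genes higher (3.38%) and 494 lower (3.23%). The median over all genes was 0.013, which TMM scaling sets near 0. With DESeq2 size factors in edgeR 2758 were higher and 2989 lower, so which direction holds more genes depends on the scaling. The 12 higher genes with the largest fold changes at 5 CPM or more included Cpne8, a member of the calcium-dependent membrane-binding copines, Mst1r, a receptor tyrosine kinase, Mt3, a metallothionein, Spns2, a transporter of sphingosine-1-phosphate, Gdnf, a growth factor for neurons, and Cyp2s1, a cytochrome P450. Cpne8 had 61.4, 61.8 and 62.3 CPM in the 6-month KO libraries, against 3.60, 4.35 and 4.95 CPM in the 1-month KO libraries, a log2 fold change of 3.85 ± 0.10 (adjusted p = 8.10e-25). Gdnf had 6.58, 7.27 and 8.54 CPM in the 6-month KO libraries, against 0.584, 0.994 and 1.25 CPM in the 1-month KO libraries, a change of 2.99 ± 0.20 (adjusted p = 2.00e-14). The 12 genes were chosen for fold change and for no overlap between the ages, so the separation of their libraries is no further result. The other 6 in that group were the osteoclast genes Ctsk, Oscar and Car2, described below, and Kbtbd11 (2.86), Odf3l1 (2.55) and Tnfsf13os (2.84). Tnfsf13os is an antisense gene, and without recorded strand its reads cannot be told apart from those of Tnfsf13.

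The 12 lower genes were led by Marco, a scavenger receptor of macrophages (log2 fold change -3.42). They also included Hpgd, which degrades prostaglandins (-2.70), F13a1, the A subunit of coagulation factor XIII (-2.53), Fabp7, a fatty acid-binding protein (-2.36), and Ly86, a partner of a Toll-like receptor relative on the cell surface (-2.14). Fabp7 had 8.27, 9.16 and 9.98 CPM in the 6-month KO libraries, against 44.0, 46.8 and 49.9 CPM in the 1-month KO libraries, with an adjusted p of 1.50e-20. Hpgd had 1.66, 1.78 and 2.35 CPM in the 6-month KO libraries, against 10.0, 12.4 and 15.0 CPM in the 1-month KO libraries, and F13a1 had 1.52, 1.66 and 2.44 CPM in the 6-month KO libraries, against 9.84, 11.1 and 11.9 CPM in the 1-month KO libraries. No overlap between the ages, found in 44.1% of all genes, was a condition for these 12 genes too. The other 7 genes fell by between 2.02 and 2.92 on the log2 scale: Rasgrp2, an exchange factor for Rap1, Sel1l3, Cnbd2, the adhesion molecule Jam2, the long non-coding RNA Snhg11, the transporter gene Abca9 and the receptor phosphatase gene Ptprm.

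Genes of bone resorption and acid secretion were higher at 6 months in 18 of 20 cases, and 1 was lower, with a list median of 0.93 beside 0.013 for all genes. The counts of this and every further list in KO cultures stand beside 19.7% of all genes higher and 17.8% lower. Ctsk (ENSMUSG00000028111, chromosome 3, 95499256-95509362), which encodes cathepsin K, had 662, 704 and 743 CPM in the 6-month KO libraries, against 56.8, 75.6 and 85.3 CPM in the 1-month KO libraries. That is a 9.65-fold difference and a log2 fold change of 3.27 ± 0.087 (adjusted p = 8.10e-25). Acp5, the tartrate-resistant acid phosphatase used to stain osteoclasts, had 456, 489 and 535 CPM in the 6-month KO libraries, against 81.4, 93.4 and 95.2 CPM in the 1-month KO libraries, or 2.45 ± 0.087 (adjusted p = 2.24e-21). Car2, a carbonic anhydrase and source of the protons that dissolve bone mineral, had 7.96, 8.53 and 10.4 CPM in the 6-month KO libraries, against 1.30, 1.45 and 1.70 CPM in the 1-month KO libraries, or 2.58 ± 0.16 (adjusted p = 3.40e-15). Oscar, a costimulatory receptor of osteoclasts, had 8.10, 8.23 and 9.28 CPM in the 6-month KO libraries, against 0.949, 0.994 and 1.12 CPM in the 1-month KO libraries, or 3.05 ± 0.21 (adjusted p = 4.67e-14). All 4 genes separated the donor ages completely, as did 44.1% of all genes. For Ctsk, Car2 and Oscar this was a condition of their choice.

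Changes were smaller for Mmp9, Itgb3 and Atp6v0d2. Mmp9, a gelatinase of osteoclasts, had 711, 809 and 826 CPM in the 6-month KO libraries, against 290.5, 304 and 324 CPM in the 1-month KO libraries, or 1.35 ± 0.063 (adjusted p = 3.10e-18). Itgb3, the beta chain of the integrin that seals the osteoclast to bone, averaged 22.9 ± 1.61 CPM at 6 months and 11.8 ± 1.02 CPM at 1 month (SD, n = 3 each), and Atp6v0d2, the osteoclast isoform of a proton pump subunit, 242 ± 8.70 CPM at 6 months and 135 ± 12.2 CPM at 1 month. Their log2 fold changes were 0.96 and 0.84, both past the test. Ostm1, the partner of the lysosomal chloride channel, was the 1 member that fell, by 0.22 on the log2 scale, and that call was lost without 1-month KO replicate 1. Calcr, the calcitonin receptor and a marker of mature osteoclasts, was near absent in both groups. It had 53 counts over the 6-month KO libraries and 2 over the 1-month KO libraries. The 1-month WT libraries had 2, 12 and 14 counts of it, and each 6-month WT library 934 to 1159. In set 519 Calcr stood higher. Without TMM scaling it had 16.9 to 18.5 CPM in the 1-month KO libraries of set 519 and 78.45 to 88.1 CPM in the 6-month ones. The 6-month WT libraries had 53.5 to 58.0 CPM on that scale. In the unprefixed KO cultures the ratio of 6-month to 1-month rates of Calcr was 23.9, with a 95% interval of 6.29 to 202 from counting error alone. Of the genes that define a mature osteoclast, Ctsk, Acp5 and Mmp9 were thus measured in all 6 unprefixed KO libraries, while Calcr was low in each of them. Subunits of the proton pump were divided: 4 of 16 V-ATPase subunits were higher and 3 lower, with a median of -0.017. Atp6v1e1 and Atp6v1f were among the lower, at -0.43 and -0.41, and Atp6v1d among the higher, at 0.27.

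**Figure D1:**
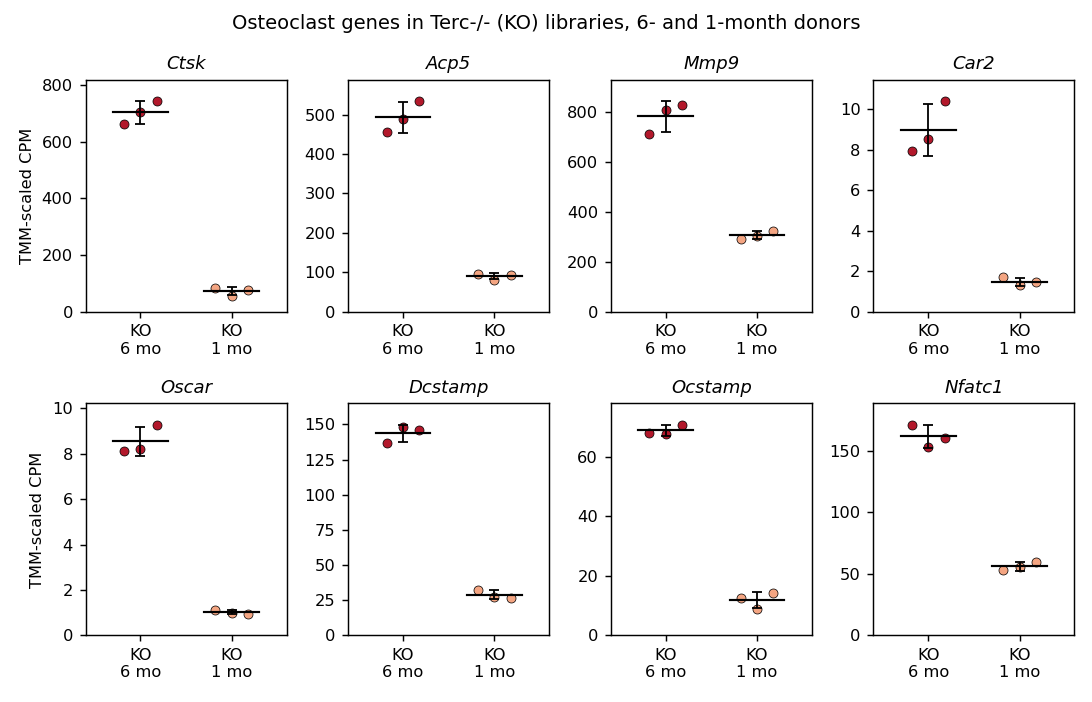
TMM-scaled CPM (y axes, linear, from 0) of 8 osteoclast genes in the 3 libraries of 6-month KO donors (left, dark red) and the 3 of 1-month KO donors (right, light); points are libraries, horizontal lines are means and bars are SD. In all 8 genes every 6-month library lies above every 1-month library, for example Ctsk at 662, 704 and 743 CPM against 56.8, 75.6 and 85.3 CPM. For Ctsk, Car2 and Oscar no overlap was a condition of choice.

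Fusion genes split. Dcstamp and Ocstamp, membrane proteins required for osteoclast precursors to fuse, were higher at 6 months. Dcstamp had 137, 146 and 149 CPM in the 6-month KO libraries, against 26.7, 27.2 and 32.5 CPM in the 1-month KO libraries, or 2.32 ± 0.072 (adjusted p = 6.80e-23). Ocstamp had 67.7, 68.1 and 70.9 CPM in the 6-month KO libraries, against 8.82, 12.5 and 14.3 CPM in the 1-month KO libraries, or 2.52 ± 0.095 (adjusted p = 9.00e-21). Mst1r averaged 17.6 ± 2.27 CPM at 6 months and 1.83 ± 0.309 CPM at 1 month, and Sh3pxd2a, a scaffold of podosomes, 123 ± 4.04 CPM at 6 months and 63.5 ± 11.6 CPM at 1 month. Of the 14 fusion genes 7 rose and 5 fell, with a median of 0.084. The largest fall was that of Adam12, a membrane metalloprotease, by 1.46 on the log2 scale.

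Among genes of RANK signalling and osteoclast transcription factors, 8 of 26 rose and 9 fell, with a median of 0.022. Those that rose most were transcriptional regulators. Nfatc1, which encodes NFATc1, had 153, 161 and 171 CPM in the 6-month KO libraries, against 53.2, 55.2 and 59.9 CPM in the 1-month KO libraries, or 1.53 ± 0.076 (adjusted p = 1.40e-17). Prdm1, the repressor Blimp1 that NFATc1 uses to silence anti-osteoclast genes, had 43.0, 46.3 and 49.6 CPM in the 6-month KO libraries, against 9.29, 12.1 and 14.3 CPM in the 1-month KO libraries, or 1.97 ± 0.10 (adjusted p = 1.57e-17). Jdp2, an AP-1 family factor, changed by 1.72 ± 0.063 (adjusted p = 4.69e-21), and Ppargc1b, a coactivator of mitochondrial biogenesis in osteoclasts, by 1.83 ± 0.13 (adjusted p = 2.34e-13). No library of one age overlapped the other in these 4 genes, as in 44.1% of all genes. Repressors of osteoclast formation went the other way, with 9 of 13 lower, 1 higher and a median of -0.20. Irf8, a factor that keeps the precursor a macrophage, had 59.0, 62.9 and 67.0 CPM in the 6-month KO libraries, against 104, 112 and 113 CPM in the 1-month KO libraries, or -0.81 ± 0.058 (adjusted p = 2.40e-13). Nr4a1, a nuclear receptor, changed by -1.32 ± 0.16 (adjusted p = 4.99e-08), and the inhibitory receptor gene Lilrb4a by -0.41 ± 0.072 (adjusted p = 2.44e-05). Id2, an inhibitor of helix-loop-helix factors, changed by -0.40 ± 0.073 (adjusted p = 3.73e-05).

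Macrophage genes fell at 6 months. Of 19 measured macrophage and monocyte markers 18 were lower and 0 higher, with a median of -0.62, and only Ccr2 did not pass the test. Their summed level was 31210.0 to 31500.0 CPM in the 6-month KO libraries, against 54500.0 to 57300.0 CPM in the 1-month KO libraries. Marco (ENSMUSG00000026390, chromosome 1, 120474538-120505024) had 160.5, 172 and 208 CPM in the 6-month KO libraries, against 1816, 1949 and 2024 CPM in the 1-month KO libraries, or -3.42 ± 0.12 (adjusted p = 6.04e-22). Cd36, a scavenger receptor for oxidized lipid, had 894, 926 and 976 CPM in the 6-month KO libraries, against 2019.7, 2083 and 2092 CPM in the 1-month KO libraries, or -1.15 ± 0.051 (adjusted p = 9.44e-19). Mertk, a receptor for engulfing dead cells, averaged 41.0 ± 2.87 CPM at 6 months and 82.8 ± 8.36 CPM at 1 month, and Adgre1, the F4/80 antigen, 1949.7 ± 51.1 CPM at 6 months and 2939.7 ± 143 CPM at 1 month. Those falls were -1.01 and -0.59 on the log2 scale. All 4 genes were lower in every 6-month library than in any 1-month library, which was a condition of choice for Marco. The ages did not overlap in 44.1% of all genes. Because these are bulk cultures, fewer cells of a type and less RNA per cell cannot be told apart, and neither can donor age and the degree of osteoclast formation in the dish.

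Genes of complement C1q and tissue macrophages were lower in 10 of 15 cases and higher in 2, with a median of -0.73. Apoe, the lipid carrier apolipoprotein E, had 212, 239 and 262 CPM in the 6-month KO libraries, against 732, 905 and 925 CPM in the 1-month KO libraries, or -1.85 ± 0.15 (adjusted p = 2.80e-12). C1qb and C1qc, chains of complement C1q, averaged 576 ± 29.7 CPM at 6 months and 1081 ± 129 CPM at 1 month and 532 ± 4.76 CPM at 6 months and 988 ± 77.2 CPM at 1 month. Lysosomal genes were lower in 22 of 27 cases, with a median of -0.32. Ctsb, cathepsin B, had 8562, 8572 and 8786 CPM in the 6-month KO libraries, against 12614, 13470.4 and 14072 CPM in the 1-month KO libraries, or -0.63 ± 0.047 (adjusted p = 5.15e-13). Ctsd changed by -0.89, Ctsh by -1.39 and Lgmn by -0.64, all proteases of the lysosome. The cathepsin of bone resorption was thus higher at 6 months while 3 other cathepsins were lower. Lipid handling genes were divided, with 5 of 16 higher, 6 lower and a median of -0.15. The largest rise among them was 0.77. Of those that fell, Fabp4 and Fabp5, fatty acid chaperones, changed by -1.91 and -1.08, and Lpl, lipoprotein lipase, by -0.66.

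**Figure D2:**
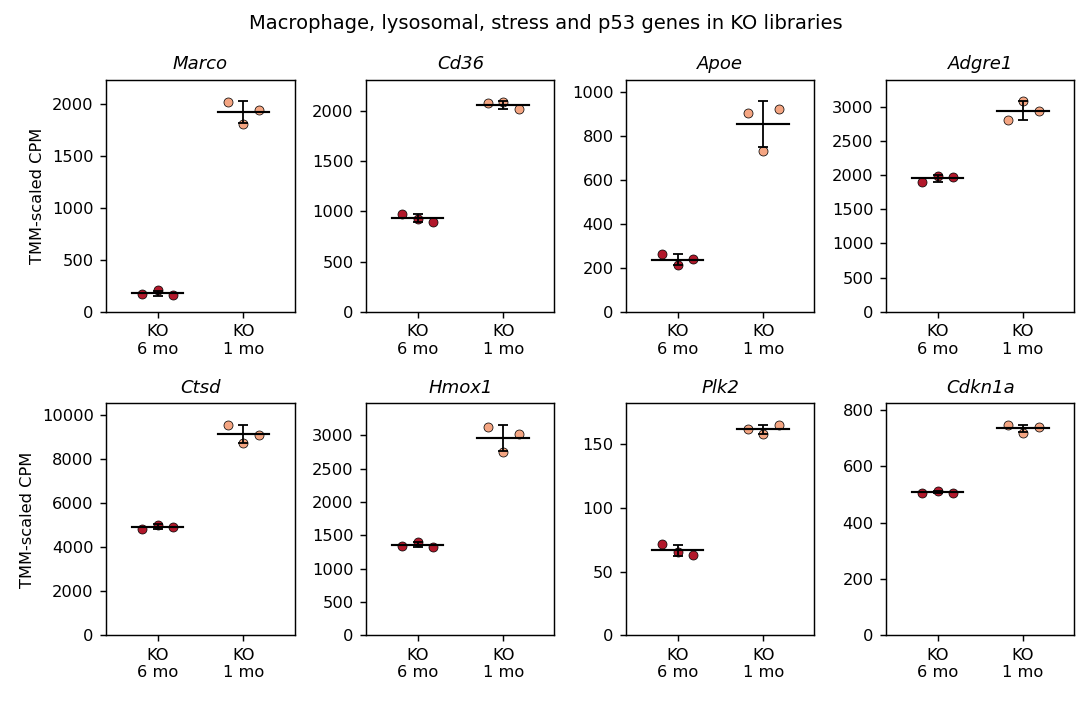
TMM-scaled CPM (y axes, linear, from 0) of 8 macrophage, lysosome, stress and p53 target genes in the 3 libraries of 6-month KO donors (left) and the 3 of 1-month KO donors (right); points are libraries, lines are means and bars are SD. Marco at 160.5, 172 and 208 CPM against 1816, 1949 and 2024 CPM shows the widest separation.

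Antioxidant genes controlled by the factor NRF2 were lower in 15 of 21 cases and higher in 2 (1 without any one of 5 of the 6 KO libraries), with a median of -0.31. Hmox1, heme oxygenase 1, had 1330.1, 1345 and 1400.4 CPM in the 6-month KO libraries, against 2749, 3021 and 3128 CPM in the 1-month KO libraries, or -1.13 ± 0.065 (adjusted p = 7.61e-16). Prdx1, a peroxiredoxin, changed by -1.15 ± 0.067 (adjusted p = 8.56e-16), and Slc7a11, the cystine importer, by -1.32 ± 0.071 (adjusted p = 1.01e-16). Iron genes moved in both directions, 4 of 13 up and 7 down. Slc40a1, the iron exporter ferroportin, had 51.3, 61.0 and 65.6 CPM in the 6-month KO libraries, against 192, 203 and 221 CPM in the 1-month KO libraries, or -1.79 ± 0.075 (adjusted p = 2.01e-19). Slc11a1, an iron and manganese transporter of the phagosome, changed by -0.84, and Lcn2, which binds bacterial iron carriers, by -1.06. The 3 were lower at 6 months in every library, beside 44.1% of all genes without overlap in either direction.

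Inflammatory cytokines and secretory factors were lower in 13 of 30 cases and higher in 3, with a median of -0.30. Mmp12, the macrophage elastase, had 891, 1004 and 1040.3 CPM in the 6-month KO libraries, against 2550.3, 2566 and 2948 CPM in the 1-month KO libraries, or -1.46 ± 0.074 (adjusted p = 2.03e-17). Ccl6, a chemokine of macrophages, had 321, 403 and 475 CPM in the 6-month KO libraries, against 899, 1009 and 1173 CPM in the 1-month KO libraries, or -1.36 ± 0.14 (adjusted p = 5.35e-10). Cxcl1, a chemokine for neutrophils, changed by -1.56 ± 0.16 (adjusted p = 1.68e-09), and Mmp13, a collagenase, by -1.22 ± 0.12 (adjusted p = 4.93e-10). Classic inflammatory cytokines moved little. Tnf had 57.4, 58.6 and 61.3 CPM in the 6-month KO libraries, against 58.2, 69.4 and 74.2 CPM in the 1-month KO libraries, and its small difference of -0.19 ± 0.075 (adjusted p = 0.0441) was lost without any one of 4 libraries, among them 1-month KO replicate 1 at -0.17. Il1b had 9.90, 11.6 and 12.1 CPM in the 6-month KO libraries, against 9.44, 11.04 and 11.3 CPM in the 1-month KO libraries, with an adjusted p of 0.82. Feedback genes of NF-kB were divided, 4 of 14 higher and 6 lower, with Traf1 at 0.65 and Nfkbiz at -1.04. Saa3, an acute-phase protein, changed by -0.98 ± 0.18 (adjusted p = 3.49e-05).

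Target genes of p53, the factor that responds to DNA damage, were mostly lower at 6 months: 18 of 30 fell and 4 rose (2 without 1-month KO replicate 1 or 4 or 6-month KO replicate 1), with a median of -0.36. Cdkn1a, the cell cycle inhibitor p21, had 505, 507 and 512 CPM in the 6-month KO libraries, against 719, 738 and 746 CPM in the 1-month KO libraries, or -0.53 ± 0.053 (adjusted p = 5.42e-10). Plk2, a polo-like kinase, had 63.1, 65.8 and 71.7 CPM in the 6-month KO libraries, against 158, 162 and 165 CPM in the 1-month KO libraries, or -1.28 ± 0.063 (adjusted p = 1.18e-17). Gadd45a, induced by growth arrest and DNA damage, changed by -1.31 ± 0.13 (adjusted p = 2.03e-10), Phlda3, an inhibitor of Akt, by -1.25 ± 0.10 (adjusted p = 5.68e-12), and Btg2, an antiproliferative gene, by -0.81 ± 0.15 (adjusted p = 6.83e-05). Mdm2, the ubiquitin ligase that limits p53 and is itself a target, had 486, 493 and 509.6 CPM in the 6-month KO libraries, against 509.7, 518 and 520.3 CPM in the 1-month KO libraries, and did not pass the test (adjusted p = 0.351). Of the other inhibitors of the cell cycle, Cdkn1b (p27) changed by 0.60 ± 0.092 (adjusted p = 2.39e-06) and Cdkn2c (p18) by 0.51 ± 0.062 (adjusted p = 3.90e-08). Cdkn2a, a gene of senescent cells, had 35.8, 38.4 and 38.93 CPM in the 6-month KO libraries, against 27.3, 35.4 and 37.0 CPM in the 1-month KO libraries, with an adjusted p of 0.173.

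Genes of mitosis rose together. Of 26 members 24 were higher and 0 lower, with a median of 0.46, and all 26 had no overlap between the ages, beside 44.1% of all genes. Cdc20, an activator of the anaphase-promoting complex, had 82.4, 82.8 and 87.1 CPM in the 6-month KO libraries, against 46.2, 50.3 and 53.5 CPM in the 1-month KO libraries, or 0.75 ± 0.074 (adjusted p = 4.42e-10). Mki67, which encodes the proliferation antigen Ki-67, had 393, 407 and 437 CPM in the 6-month KO libraries, against 228, 268 and 298 CPM in the 1-month KO libraries, or 0.64 ± 0.091 (adjusted p = 6.67e-07). Cenpa, the histone of the centromere, changed by 0.66 ± 0.061 (adjusted p = 7.84e-11), and Mybl2, a transcription factor of the dividing cell, by 0.71 ± 0.076 (adjusted p = 2.77e-09). Their summed level was 2587 to 2638 CPM in the 6-month KO libraries, against 1820.0 to 1943 CPM in the 1-month KO libraries. Genes of DNA replication moved less, with 9 of 26 higher, 1 lower (2 without 1-month KO replicate 2 or 6-month KO replicate 3) and a median of 0.12. Uhrf1 and Tyms were higher by 0.29 and 0.28, whereas Pcna, the sliding clamp of the polymerase, was lower (-0.30). The G1 cyclin genes Ccnd1 and Ccnd2 were also lower, at -0.57 and -0.55, and Myc was higher at 0.57.

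DNA repair genes were higher in 16 of 32 cases and lower in 1, with a median of 0.18. Without 1-month KO replicate 1 the higher count was 8 and the lower 0, and without 1-month KO replicate 4 it was 10. The largest rise was that of Xrcc5, the Ku80 subunit that binds broken DNA ends, with 12.2, 12.5 and 12.9 CPM in the 6-month KO libraries, against 5.59, 5.74 and 6.65 CPM in the 1-month KO libraries, or 1.06 ± 0.10 (adjusted p = 6.62e-11). H2afx, the histone variant phosphorylated at breaks, changed by 0.62 ± 0.088 (adjusted p = 6.70e-07), Blm, a helicase, by 0.43 ± 0.091 (adjusted p = 3.04e-04), and Fancd2, of the crosslink repair pathway, by 0.42 ± 0.10 (adjusted p = 0.00101). Genes of telomerase and telomere maintenance were higher in 7 of 26 measured cases and lower in 2 (0 without 6-month KO replicate 1, and 1 without 6-month KO replicate 2 or 1-month KO replicate 1 or 4), with a median of 0.14. Those are 26.9% and 7.69% of the list, beside 19.7% and 17.8% of all genes. Dkc1, dyskerin, which stabilizes the telomerase RNA, had 77.8, 79.7 and 79.9 CPM in the 6-month KO libraries, against 47.7, 54.3 and 55.9 CPM in the 1-month KO libraries, or 0.59 ± 0.059 (adjusted p = 7.02e-10). Gar1, of the same complex, changed by 0.53 ± 0.11 (adjusted p = 1.53e-04), and Rtel1, a helicase that unwinds telomere loops, by 0.32 ± 0.063 (adjusted p = 1.31e-04). These repair and telomere differences were well below 2-fold, apart from that of Xrcc5.

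Of 45 interferon-stimulated genes 12 were higher at 6 months, or 26.7% beside 19.7% of all genes, and 3 were lower, or 6.67% beside 17.8%, with a median of 0.11. That higher count was 5 without 1-month KO replicate 1 and 7 without 6-month KO replicate 3. Ly6a, the surface antigen Sca-1, had 96.5, 120.2 and 127 CPM in the 6-month KO libraries, against 26.5, 26.7 and 32.9 CPM in the 1-month KO libraries, or 2.00 ± 0.10 (adjusted p = 1.33e-17). Ifi44 had 31.4, 31.6 and 35.4 CPM in the 6-month KO libraries, against 12.8, 16.0 and 16.1 CPM in the 1-month KO libraries, or 1.13 ± 0.14 (adjusted p = 5.34e-08), and Gbp7, a guanylate-binding protein, had 39.3, 40.2 and 41.4 CPM in the 6-month KO libraries, against 16.5, 17.4 and 27.4 CPM in the 1-month KO libraries, or 0.99 ± 0.12 (adjusted p = 3.43e-08). Isg15, a ubiquitin-like modifier, had 60.0, 69.8 and 92.5 CPM in the 6-month KO libraries, against 49.3, 49.5 and 57.2 CPM in the 1-month KO libraries. Its difference of 0.51 ± 0.14 (adjusted p = 0.00488) was lost without 6-month KO replicate 3, at 0.32 with an adjusted p of 0.0984. Irf7, the factor that amplifies the interferon response, had 228, 267 and 288 CPM in the 6-month KO libraries, against 182, 188 and 232 CPM in the 1-month KO libraries, or 0.38 ± 0.12 (adjusted p = 0.016), which DESeq2 did not call and which was lost without 1-month KO replicate 1 (0.33) or 2 (0.31) or 6-month KO replicate 3 (0.30). Ifnb1, interferon beta itself, had 0 counts over the 6-month KO libraries, which allows at most 0.0433 CPM, and 2 counts over the 1-month KO libraries. Bst2, also induced by interferon, changed by -0.56 ± 0.10 (adjusted p = 2.09e-05).

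Interferon acts on such genes through short promoter motifs, of which the letters GAAA, any 2 bases, GAAA (ISRE-like, as bound by interferon-activated complexes) and TTCNNNGAA (GAS-like) were searched on both strands in the 250 bases before each RefSeq start site (GRCm38.p6). The first was present before 18 of the 34 interferon-stimulated genes with a promoter in the table, or 52.9%, beside 304 of 10871 tested genes, or 2.8%. The second was present before 8 of 34, or 23.5%, beside 5.79%. Among genes higher and lower in 6-month KO cultures as a whole, the ISRE-like letters stood before 2.76% and 3.05%, both near the 2.8% of all genes. The promoters below are those of the interferon-stimulated genes with the largest rise that hold the ISRE-like letters, shown so that a reader can see what the list shares in sequence. They run from 5′ to 3′ on the strand of the gene, and the capitals mark the ISRE-like letters on either strand. A match is a description of these letters and not a bound site. Gbp7 lies on chromosome 3 (+ strand, chr3:142530086-142530335), and changed by 0.99 on the log2 scale. Gbp5 lies on chromosome 3 (+ strand, chr3:142496684-142496933), and changed by 0.59 on the log2 scale. Cxcl10 lies on chromosome 5 (- strand, chr5:92348890-92349139), and changed by 0.52 on the log2 scale. Isg15 lies on chromosome 4 (- strand, chr4:156200819-156201068), and changed by 0.51 on the log2 scale. Gbp3 lies on chromosome 3 (+ strand, chr3:142559794-142560043), and changed by 0.43 on the log2 scale.
Gbp7: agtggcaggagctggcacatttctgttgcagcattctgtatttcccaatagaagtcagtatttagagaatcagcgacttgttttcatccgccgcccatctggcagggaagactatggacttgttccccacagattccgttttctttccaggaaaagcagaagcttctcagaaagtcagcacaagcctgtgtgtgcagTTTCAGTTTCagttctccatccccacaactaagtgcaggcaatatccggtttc
Gbp5: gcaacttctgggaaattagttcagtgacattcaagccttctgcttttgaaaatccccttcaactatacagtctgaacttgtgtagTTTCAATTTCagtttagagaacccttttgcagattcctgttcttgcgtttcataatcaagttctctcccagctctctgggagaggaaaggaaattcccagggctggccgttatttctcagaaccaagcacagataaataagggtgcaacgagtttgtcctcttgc
Cxcl10: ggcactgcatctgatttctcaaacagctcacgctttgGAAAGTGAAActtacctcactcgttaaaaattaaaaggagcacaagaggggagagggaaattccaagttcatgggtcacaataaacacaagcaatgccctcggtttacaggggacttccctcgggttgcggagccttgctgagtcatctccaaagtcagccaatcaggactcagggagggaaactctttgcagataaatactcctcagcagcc
Isg15: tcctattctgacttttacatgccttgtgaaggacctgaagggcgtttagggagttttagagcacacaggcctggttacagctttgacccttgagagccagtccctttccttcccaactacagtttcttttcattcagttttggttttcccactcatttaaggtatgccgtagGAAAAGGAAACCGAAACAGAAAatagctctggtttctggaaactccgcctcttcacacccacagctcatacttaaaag
Gbp3: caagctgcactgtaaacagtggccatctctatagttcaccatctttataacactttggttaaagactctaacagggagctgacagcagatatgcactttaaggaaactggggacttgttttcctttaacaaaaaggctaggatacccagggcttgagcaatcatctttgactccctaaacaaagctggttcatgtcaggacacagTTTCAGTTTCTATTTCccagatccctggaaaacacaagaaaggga

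In Gbp7, Gbp5 and Cxcl10 the letters occur 1 time, in Gbp3 they occur as 2 overlapping copies, and in Isg15 as 3 overlapping copies with 56 bases between the last copy and the start site. Between the match and the start site lay 43 bases in Gbp7, 155 in Gbp5 and 203 in Cxcl10. GAS-like letters were also found before Gbp7 and Gbp5, 2 matches each, and in the window of neither Cxcl10, Isg15 nor Gbp3. Genes of antigen presentation on MHC class I, which interferon also induces, were divided: 2 of 13 rose and 2 fell, with a median of -0.015. Tap1 and Tap2, the peptide transporter, were the higher pair, at 0.30 ± 0.065 (adjusted p = 3.14e-04) and 0.27 ± 0.069 (adjusted p = 0.00202). The falls were those of Psmb10 and Psme1, subunits of the immunoproteasome and its activator. Both were lost without 1-month KO replicate 1, at -0.21 and -0.16, and without 6-month KO replicate 1, at -0.21 and -0.18, while 4 genes fell without 1-month KO replicate 2. Interferon receptors and sensors tended lower, with 9 of 19 fallen and 2 risen (1 without 4 of the libraries), including Ifngr1, a chain of the interferon gamma receptor, at -0.57 ± 0.048 (adjusted p = 1.41e-11), and the RNA sensor Tlr7, at -0.46 ± 0.072 (adjusted p = 3.74e-06).

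**Figure D3:**
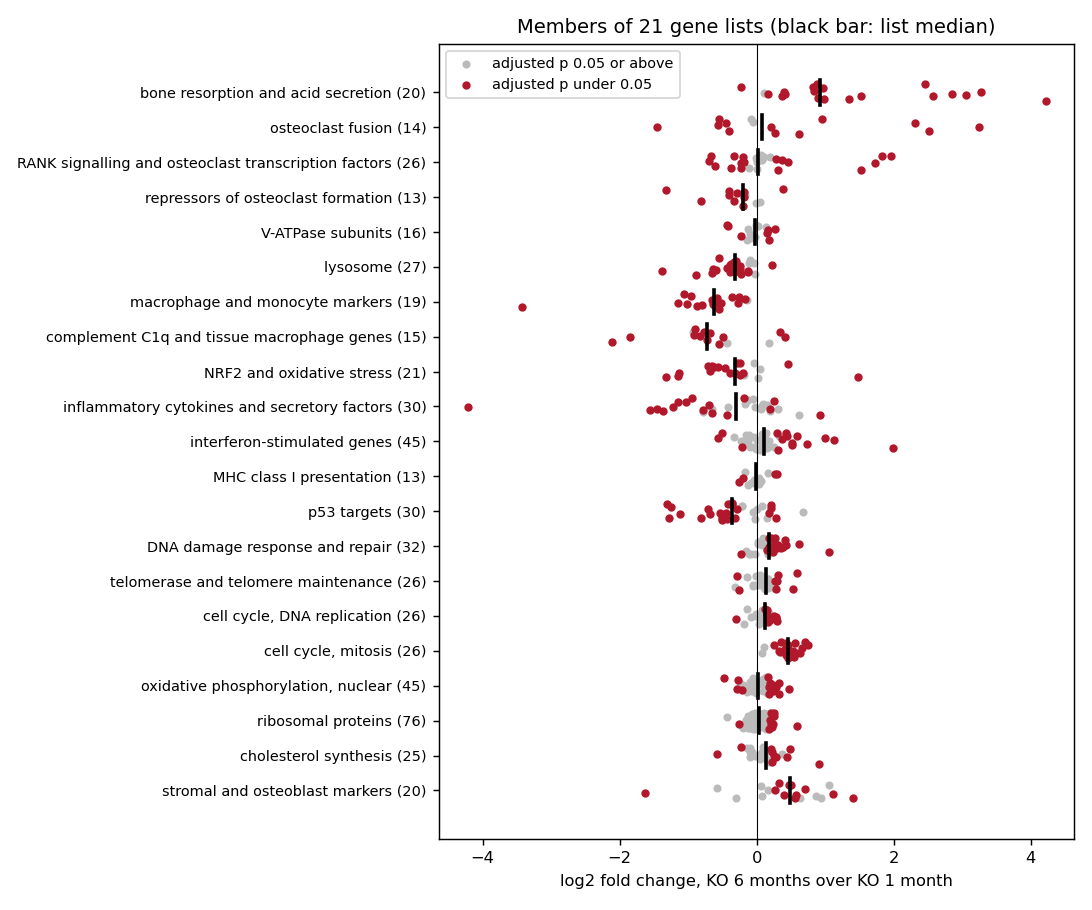
Each point is 1 gene of the list named on the y axis (number measured in parentheses), placed by its log2 fold change between 6-month and 1-month KO cultures (x axis); red points have an adjusted p under 0.05 and black bars are list medians. Resorption and mitosis genes lie mostly right of 0, with medians of 0.93 and 0.46, and macrophage markers left of it, with a median of -0.62.

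Metabolic lists moved little. Nuclear genes of oxidative phosphorylation were higher in 11 of 45 cases and lower in 4, with a median of 0.027. Those counts depended on the 1-month libraries, with 17 higher and 2 lower without replicate 1, and 9 lower without replicate 2. Without 6-month KO replicate 1 or 2 the lower count was 2. Uqcrc2 and Cyc1, of respiratory complex III, changed by 0.33 ± 0.047 (adjusted p = 7.76e-07) and 0.47 ± 0.085 (adjusted p = 3.29e-05). Of the 13 mitochondrial genes measured 1 rose (0 without 1-month KO replicate 4) and 2 fell (1 without 1-month KO replicate 1 or 6-month KO replicate 3), among them mt-Co1 at -0.34. Cholesterol synthesis genes were higher in 8 of 25 cases and lower in 2 (1 without 1-month KO replicate 4 or 6-month KO replicate 1), among the higher Srebf2, the regulator of the pathway, at 0.49 ± 0.061 (adjusted p = 5.47e-08). Glycolysis and hypoxia genes were divided at 4 higher and 5 lower of 30, with Pfkfb3 lower at -0.87 and Aldoc higher at 0.45. Ribosomal protein genes were higher in 10 of 76 cases and lower in 1. Without 1-month KO replicate 1 they were higher in 23, and without 1-month KO replicate 2 they were higher in 3 and lower in 10. Without 6-month KO replicate 2 or 3 they were higher in 6 or 5.

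Stress genes were mixed as well. Of 24 genes of the unfolded protein and integrated stress responses, 8 rose and 6 fell: Atf3 and Ppp1r15a were lower, at -0.84 and -0.92, and Asns, which makes asparagine, was higher at 0.62. Immediate early genes that were lower included Dusp1 at -0.97 ± 0.065 (adjusted p = 3.81e-14), Klf6 at -0.78 ± 0.054 (adjusted p = 6.04e-14) and Egr2 at -0.79 ± 0.13 (adjusted p = 4.90e-06). Neat1, a nuclear long non-coding RNA, had 737, 743 and 773 CPM in the 6-month KO libraries, against 272, 288 and 294 CPM in the 1-month KO libraries, or 1.40 ± 0.067 (adjusted p = 5.86e-18). Its levels separated the ages completely, as did those of 44.1% of all genes. Igf1, a growth factor that osteoclasts release to bone-forming cells, changed by -0.91 ± 0.063 (adjusted p = 1.03e-13), and Pdgfb by 0.43 ± 0.063 (adjusted p = 1.53e-06).

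Markers of other cells were checked, since they could travel with the comparison. Of 21 stromal and osteoblast markers 20 were measured, and 10 were higher at 6 months and 1 lower (2 lower without 1-month KO replicate 1), with a median of 0.49. Their summed level was 1668 to 1709 CPM in the 6-month KO libraries, against 1106 to 1380.0 CPM in the 1-month KO libraries. Postn, periostin, had 117, 118 and 123 CPM in the 6-month KO libraries, against 53.2, 54.5 and 56.9 CPM in the 1-month KO libraries, or 1.12 ± 0.072 (adjusted p = 1.18e-14), and Col1a1, collagen I, had 234, 252 and 255 CPM in the 6-month KO libraries, against 129.9, 157 and 168 CPM in the 1-month KO libraries, or 0.71 ± 0.088 (adjusted p = 6.27e-08). Summed endothelial markers were 81.1 to 93.0 CPM in the 6-month KO libraries, against 46.2 to 55.1 CPM in the 1-month KO libraries, with 3 of 7 measured genes higher, led by Kdr at 1.22 ± 0.12 (adjusted p = 1.49e-10). Flt1, at 0.43 ± 0.17 (adjusted p = 0.0463), was lost under several alternatives, for example at 0.38 without 1-month KO replicate 1. In the other direction, summed neutrophil granule markers were 39.5 to 45.9 CPM in the 6-month KO libraries, against 74.2 to 76.3 CPM in the 1-month KO libraries, with 4 of 12 measured, while S100a9 and Retnlg had 0 counts in both groups and Ltf had 0 over the 6-month KO libraries and 2 over the 1-month KO libraries. Summed T and NK markers, 3 of 12 measured, were 80.4 to 85.0 CPM in the 6-month KO libraries, against 126 to 135 CPM in the 1-month KO libraries, nearly all from Il7r, while Cd3d, Cd3g and Cd8a had 0 counts in both groups. Dendritic markers summed to 404 to 429 CPM in the 6-month KO libraries, against 666 to 755 CPM in the 1-month KO libraries, with Itgax at -1.72, a gene macrophages also express. B cell, mast cell and platelet or erythroid markers had no difference past the test, apart from 1 of 2 measured mast markers that was lower. The part of these cells in the differences above was not tested.

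Donor sex is not given in the labels. Xist, expressed from the inactive X chromosome of females, had 1 count over the 6-month KO libraries and 5 over the 1-month KO libraries, so it was near 0 in both. Of 4 Y-linked genes, Eif2s3y, a translation initiation factor subunit, had 61.5, 67.0 and 67.2 CPM in the 6-month KO libraries, against 19.8, 20.3 and 21.1 CPM in the 1-month KO libraries, or 1.67 ± 0.064 (adjusted p = 8.67e-20). Kdm5d, a histone demethylase, changed by 0.43 ± 0.075 (adjusted p = 2.30e-05), while Ddx3y and Uty, at 0.066 and 0.27, did not pass the test (adjusted p = 0.609 and 0.0648). Of the other 3 Y-linked genes, Kdm5d was thus also higher, by less, and 2 did not pass the test. Eif2s3y has a close X-linked relative, Eif2s3x, so its counts depend on how reads shared by the 2 were assigned. In set 519 its change was 1.98 ± 0.079 (adjusted p = 3.25e-19), and in WT cultures it had 64.5, 64.5 and 65.8 CPM in the 6-month WT libraries, against 68.6, 69.1 and 75.0 CPM in the 1-month WT libraries.

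The same age contrast in the KO libraries of set 519, which share no sample with the main comparison, called 4970 genes (32.5%), of which 2944 were higher (19.2%) and 2026 lower (13.2%). Of the 5742 genes called in the unprefixed libraries, 3045 were also called there, which is 53% of the first set and 61.3% of the second, and 2801 of the shared genes, or 92%, moved the same way. Resorption genes were higher in 20 of 20 cases in set 519, with a median of 1.43, and mitosis genes in 26 of 26, with a median of 0.77. Macrophage markers were lower in 10 of 19 and higher in 2, with a median of -0.32, beside 13.2% of all genes lower. The signs of those 3 medians matched the unprefixed libraries, where 18 of 19 macrophage markers were lower and 0 higher. By the test of the difference between the sets, 10 macrophage markers were more negative in the unprefixed libraries and 1 more positive. Ctsk had 5642, 5849 and 5859.9 CPM in the 6-month KO libraries of set 519, against 1344, 1345 and 1551 CPM in its 1-month KO libraries, a change of 2.03 ± 0.080 (adjusted p = 4.75e-20). Its 1-month level there lay above even the 6-month level of the unprefixed KO libraries.

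A test of the difference between the 2 sets passed for 2278 genes, or 14.9%, with 886 (5.79%) where the change was greater in the unprefixed libraries and 1392 (9.09%) where it was smaller or more negative. The negative count was 871, beside 857 positive, when only these 4 groups were fitted, and 1134, beside 1068 positive, with DESeq2 size factors in edgeR. Ctsk was among the first, with a difference of 1.24 ± 0.11 (adjusted p = 6.69e-10), as was Mst1r at 2.09 ± 0.18 (adjusted p = 1.95e-10). Across the resorption list the difference was positive for 4 genes and negative for 11 of 20, with Itgb3 and Mmp9 negative at -0.68 and -0.57. Marco fell further in the unprefixed libraries, a difference of -2.17 ± 0.17 (adjusted p = 2.78e-11), beside 45.6, 55.3 and 57.3 CPM in the 6-month KO libraries of set 519, against 115, 118 and 139.9 CPM in its 1-month KO libraries. Neat1 went opposite ways: in set 519 it had 1029, 1051 and 1060.2 CPM in the 6-month KO libraries of set 519, against 1833, 1842 and 1917 CPM in its 1-month KO libraries, and the difference was 2.23 ± 0.094 (adjusted p = 4.39e-18). Oxidative phosphorylation also set the 2 sets apart. Nuclear subunits were higher at 6 months in 44 of 45 cases in set 519, with a median of 0.57, and 41 of 45 differed from the unprefixed change. V-ATPase subunits did the same in 13 of 16 cases, and their change differed from the unprefixed one in 14, more positive in set 519 in 13 and in the unprefixed libraries in 1. For C1qb the unprefixed fall of -0.91 met a change of 0.11 in set 519 (adjusted p of the difference 3.01e-06). Since the labels do not explain the prefix and set 519 has the lower depth, set and depth cannot be told apart.

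In WT cultures the 6-month against 1-month contrast called 9743 genes, or 63.6%, with 4772 higher (31.2%) and 4971 lower (32.5%). Of the 5742 genes called in KO cultures, 4255 were also called in WT, which is 74.1% of the KO calls and 43.7% of the WT calls. Among the shared genes 3021, or 71.0%, moved the same way and 1234 the opposite way. The difference between the KO and the WT change passed the test for 7443 genes, or 48.6%, with 4142 positive (27.1%) and 3301 negative (21.6%). Resorption genes moved the same way in both genotypes for the most part. All 20 resorption genes rose in WT, with a median of 1.82, and 14 of them rose less, or not, in KO. Mmp9 had 8369, 9152 and 9641 CPM in the 6-month WT libraries, against 735, 815 and 830.1 CPM in the 1-month WT libraries, a change of 3.51 ± 0.068 (adjusted p = 2.53e-29) that exceeded the KO change by enough to give a difference of -2.16 ± 0.088 (adjusted p = 1.83e-19). Ctsk had 6402, 6475 and 6554 CPM in the 6-month WT libraries, against 551, 559 and 568 CPM in the 1-month WT libraries, and its KO and WT changes differed by -0.26 ± 0.11 (adjusted p = 0.0515), which did not pass the test. The 6-month KO level of Ctsk thus lay near that of these 1-month WT cultures. It was far below that of the 1-month WT libraries with the title tag D1, which averaged 11514 ± 101 CPM. Cpne8, Ocstamp, Prdm1 and Nfatc1 rose more in KO, with differences of 1.85, 1.08, 0.74 and 0.62, all past the test.

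The changes of interferon-stimulated and mitosis genes with donor age differed between the unprefixed KO and WT cultures. In WT cultures 44 of 45 interferon-stimulated genes were lower at 6 months, 0 were higher and the median was -2.08. The difference between the unprefixed KO and WT changes passed the test and was positive for all 45. Of these, 11 rose in KO while they fell in WT, beside 751 of all 15310 genes. Isg15 had 5.66, 6.42 and 7.75 CPM in the 6-month WT libraries, against 50.3, 64.0 and 78.0 CPM in the 1-month WT libraries, a change of -3.27 ± 0.18 (adjusted p = 4.79e-17) and a difference of 3.78 ± 0.23 (adjusted p = 5.23e-15). Ly6a had 8.47, 8.86 and 8.99 CPM in the 6-month WT libraries, against 48.9, 53.3 and 57.5 CPM in the 1-month WT libraries, and its difference of 4.60 ± 0.15 (adjusted p = 6.12e-22) was the widest of the list. The levels in both unprefixed KO groups and in 1-month WT cultures were close to one another for Isg15 and Irf7, and the 6-month WT libraries lay far below all of them. Set 519 did not share that level of Isg15. Its KO libraries averaged 17.7 CPM of Isg15 at 6 months and 15.5 CPM at 1 month. The higher level was thus not common to all KO cultures. Nor was it common to all 1-month WT cultures, since those with the title tag D1 averaged 3.98 CPM. Whether these differences go with genotype or with an unlabelled difference between sets of cultures was not tested. Mitosis genes were lower at 6 months in 23 of 26 cases in WT, with a median of -0.54. All 26 differed between the unprefixed KO and WT changes. Of the 26, 21 rose in KO and fell in WT, beside the same 751 of 15310 genes. Cdc20 had 56.4, 58.7 and 60.5 CPM in the 6-month WT libraries, against 97.0, 103 and 105 CPM in the 1-month WT libraries, a difference of 1.55 ± 0.10 (adjusted p = 3.97e-14). DNA replication genes fell in 25 of 26 cases in WT, and MHC class I genes in 12 of 13.

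**Figure D4:**
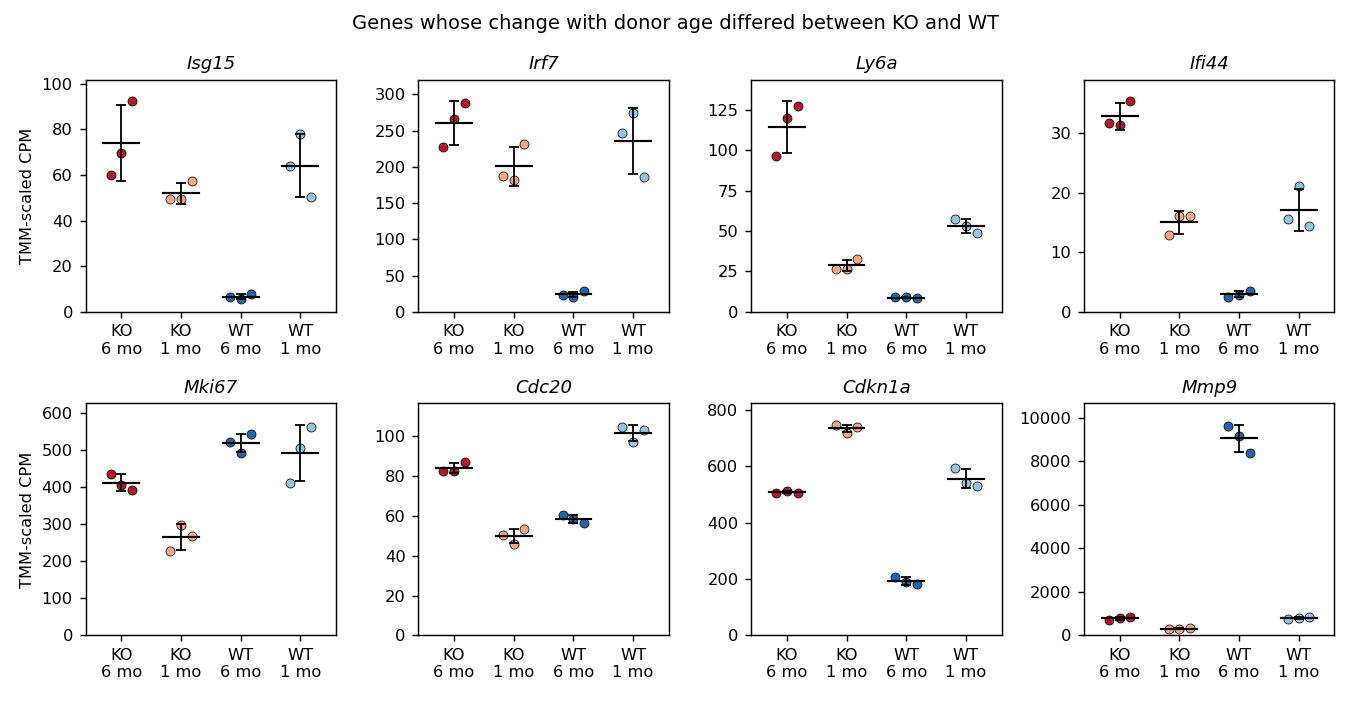
TMM-scaled CPM (y axes, linear, from 0) of 8 genes in 6-month and 1-month KO cultures (reds) and 6-month and 1-month WT cultures (blues), 3 libraries each; points are libraries, lines are means and bars are SD. Isg15, Irf7, Ly6a and Ifi44 are lowest in 6-month WT cultures, and Mmp9 is highest there, at 8369, 9152 and 9641 CPM.

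Inflammatory genes fell further in WT, 21 of 30 with a median of -1.71, and 18 of 30 differed with KO above WT. Tnf had 15.9, 16.7 and 18.6 CPM in the 6-month WT libraries, against 48.1, 49.1 and 52.7 CPM in the 1-month WT libraries, a difference of 1.36 ± 0.11 (adjusted p = 5.60e-12). Cdkn1a also fell further in WT, where it had 183, 189 and 209 CPM in the 6-month WT libraries, against 531, 542 and 594 CPM in the 1-month WT libraries, a difference of 0.99 ± 0.076 (adjusted p = 8.43e-13). Macrophage and monocyte markers fell in WT too, 15 of 19 lower and 1 higher, with a median of -1.36, beside 32.5% of all genes lower. The difference was positive for 13 of them and negative for 3. Also lower in WT were 11 of 13 osteoclast repressors, 17 of 21 NRF2 genes, 19 of 27 lysosomal genes and 19 of 30 p53 targets. In these lists 2, 2, 6 and 6 were higher. The falls of Apoe, Mertk and Slc40a1 were larger in KO, with a test of the difference past the threshold for each. Apoe had 246, 297 and 312 CPM in the 6-month WT libraries, against 255, 262 and 333 CPM in the 1-month WT libraries, a difference of -1.86 ± 0.20 (adjusted p = 3.23e-09). Mertk had 31.3, 34.0 and 37.1 CPM in the 6-month WT libraries, against 33.4, 35.1 and 36.8 CPM in the 1-month WT libraries, a difference of -0.97 ± 0.11 (adjusted p = 3.04e-09). For Slc40a1 the difference was -2.29 ± 0.11 (adjusted p = 7.80e-18). In each of the 3, the 1-month KO libraries stood above both WT groups, and the 6-month KO level was near theirs. Abca9 and Ptprm, from the top of the lower genes, fell in KO and rose in WT, with differences of -2.94 ± 0.26 (adjusted p = 3.03e-11) and -3.55 ± 0.22 (adjusted p = 8.00e-15). Stromal markers rose in 18 of 20 cases in WT. The KO change was below the WT change past the test in 15 of 20, and in KO 10 rose and 1 fell.

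**Figure D5:**
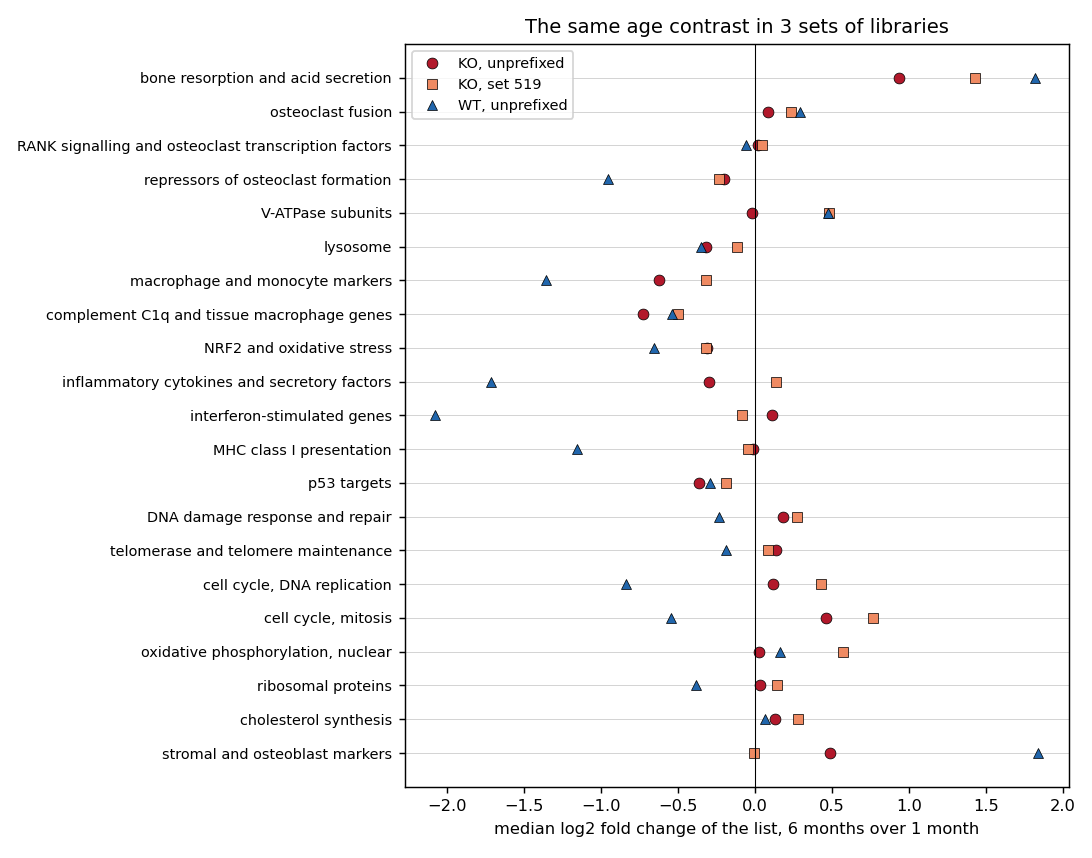
Median log2 fold change of 21 gene lists (x axis), 6 months over 1 month, in KO unprefixed (circles), KO set 519 (squares) and WT unprefixed (triangles) libraries; each symbol is the median over the measured genes of a list. The interferon-stimulated list lies at 0.11, -0.081 and -2.08, and the mitosis list at 0.46, 0.77 and -0.54 in that order.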

How the data were processed

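RNA from 30 libraries of cultured mouse osteoclasts was sequenced on an Illumina NovaSeq after oligo(dT) selection, per the labels' protocols. The deposited values are whole-number counts per gene, not normalized. Per the file headers, the authors counted read pairs over exons with featureCounts 1.6.0 on the Ensembl 88 annotation of GRCm38, from STAR alignments. The submitters' processing notes name HTSeq and mm10 instead, and the headers were followed. No strand or multimapping option is recorded, so antisense genes and near-identical copies are uncertain. The STAR version is not given in the sources used here.

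Each file held 50686 genes, of which 99.39% of IDs matched a symbol. TMM scaling and the quasi-likelihood test were run in edgeR 4.0.16 (R 4.3.3, limma 3.58.1), on a model of all 30 libraries in which each of the 10 groups has its own coefficient, which leaves 20 residual degrees of freedom. Low genes were dropped by filterByExpr (35376), leaving 15310. The biological coefficient of variation common to all genes was 0.061. The 5 contrasts tested were 6 against 1 month in KO, in set 519 and in WT, and the difference of the first from each of the others. For a gene at 0 the limit given is that of 3 counts, which covers counting error only. No replicate pair agreed within sampling noise. No batch is given in the labels.

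The samples and the 42 gene lists were chosen with earlier results of these data known, so no list was tested as a set. Lists are described by counts and medians, to be read beside the shares of all genes called in the same contrast. Named genes were the 12 higher and 12 lower with the largest fold changes (adjusted p under 0.05, mean of 5 CPM or more, no overlap of libraries), 5 each way for each difference of changes, up to 4 per list, and a fixed set. Others, such as Ostm1, Adam12, Ccr2 and the printed promoters, were named after their values were seen. Alternatives were DESeq2 1.42.0 and its size factors, other filters, only the compared groups, each library left out, a replicate block and a title-set term.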

Additional observations from a re-analysis of the deposited data

Results flagged for a closer look

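The test of the difference between the KO and the WT change passed for 4142 genes with a more positive change in KO and 3301 with a more negative one. The 5 most positive were Ifi208 (6.61 ± 0.48 on the log2 scale), an interferon-inducible gene, Ppbp (5.12 ± 0.72), a platelet and macrophage chemokine, Ly6a (4.60 ± 0.15), Cxcl3 (3.95 ± 0.42) and Isg15 (3.78 ± 0.23). In KO cultures Ifi208, Ppbp and Cxcl3 did not pass the test themselves (adjusted p = 0.348, 0.183 and 0.0998). Ifi208 had 95 to 173 counts in each of the 6 unprefixed KO libraries and 3 to 20 in each KO library of set 519, and 3 counts over the 6-month WT libraries against 327 over the 1-month WT libraries, a ratio of 0.0114 with a counting interval of 0.00233 to 0.0335.

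The 5 most negative were Olfml2a (-8.12 ± 0.77), Sfrp4 (-5.18 ± 0.69), a secreted Wnt antagonist, Akr1c18 (-4.97 ± 0.17), a steroid-metabolizing enzyme, Corin (-4.74 ± 0.66), a membrane protease, and St8sia6 (-4.65 ± 1.05), a sialyltransferase. Akr1c18 had 3.22, 3.45 and 3.72 CPM in the 6-month KO libraries, against 4.41, 5.65 and 6.28 CPM in the 1-month KO libraries, and 81.3, 84.8 and 94.0 CPM in the 6-month WT libraries, against 3.63, 4.26 and 5.34 CPM in the 1-month WT libraries. The other 4 had at most 17 counts in any unprefixed KO library, so their KO changes are poorly measured.

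Between the unprefixed and the set 519 libraries, the KO change differed for 886 genes with a more positive and 1392 with a more negative change in the unprefixed set. The most positive were Col4a6 (2.81 ± 0.32), a chain of collagen IV, Gdnf (2.57 ± 0.26), Ighm (2.48 ± 0.32), the immunoglobulin mu heavy chain, Neat1 (2.23 ± 0.094) and Spaca6 (2.23 ± 0.17). The most negative were Ccl12 (-2.43 ± 0.63), a chemokine, Saa3 (-2.31 ± 0.34), Marco (-2.17 ± 0.17), Susd2 (-2.12 ± 0.44) and Mybpc3 (-1.96 ± 0.35). The Ccl12 difference was -1.62 with an adjusted p of 0.135 without 1-month KO replicate 3 of set 519. Saa3 had 218, 284 and 297 CPM in the 6-month KO libraries, against 459.8, 532 and 586 CPM in the 1-month KO libraries, and 30.003, 32.4 and 33.6 CPM in the 6-month KO libraries of set 519, against 11.9, 12.6 and 13.1 CPM in its 1-month KO libraries.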

How the results depend on the processing

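Under DESeq2, its size factors, no filter, a filter of 1 CPM, and only the 6 compared libraries, KO calls ranged from 2303 to 2862 higher and 2387 to 2989 lower, beside 3011 and 2731. Leaving out each library gave 2503 to 2984 higher and 2316 to 2910 lower in KO, 3886 to 4192 and 2988 to 3256 for KO minus WT, and 700 to 1004 and 1066 to 1592 for KO minus set 519. Fitting only the 4 groups of the last comparison lowered its negative count to 871. DESeq2 gave 1153 and 1219 there.

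Same-numbered libraries did not deviate together (r of -0.0808 and -0.0121 for the 2 shared numbers), nor did those of WT and set 519 (r of -0.0699 to 0.0534 for 5 shared numbers), so these numbers were not used to pair samples. With the replicate number as a replicate block over 6 libraries, 1119 genes were higher and 1078 lower, with fewer samples and residual degrees of freedom. Numbers 3 and 4 occurred at 1 age only, so the age difference in that fit rested on the libraries of the 2 shared numbers.

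Of 2497 values of named genes in KO under the alternatives, 2370 kept direction and side of the threshold, 107 lost the call, 7 gained it and 13 changed sign. Leaving out single libraries, Sfrp4 ranged from -0.23 to 0.95 and Tert from -0.55 to 0.0279, and neither passed the test as reported. With both KO sets fitted together and the set as a term, Akr1c18 was 0.31, Col4a6 -0.0507, Ighm -0.24, Spaca6 -0.0805, Ccl12 0.0160, Mybpc3 0.0766, Ldhb 0.23 and Cdkn2a -0.0875, and calls of Atp6v1e1, Myc, Neat1 (0.26) and Saa3 were lost. The cause was not tested. Genes at few counts, such as Calcr, Tert and Sfrp4, are limited by depth.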

Other observations

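Levels of 4 of these genes in the WT groups outside the comparisons were as follows, beside the KO groups (mean ± SD, n = 3 libraries each). Ctsk averaged 703 ± 40.5 CPM in 6-month KO and 72.6 ± 14.5 CPM in 1-month KO cultures. It averaged 6928 ± 359 CPM in 20-month WT, 11514 ± 101 CPM in 1-month WT of the D1 title set, 1132 ± 110.5 CPM in 6-month WT 2-day and 1436 ± 26.6 CPM in 20-month WT 2-day cultures. Acp5 averaged 493 ± 39.7 CPM in 6-month KO and 90.0 ± 7.51 CPM in 1-month KO cultures, beside 3973 ± 132 CPM in 20-month WT, 8512 ± 348 CPM in 1-month WT of the D1 title set, 671 ± 46.0 CPM in 6-month WT 2-day and 719.7 ± 21.9 CPM in 20-month WT 2-day cultures. Marco averaged 179.9 ± 24.7 CPM in 6-month KO and 1929.7 ± 106 CPM in 1-month KO cultures, beside 22.9 ± 4.87 CPM in 20-month WT, 2359 ± 138 CPM in 1-month WT of the D1 title set, 32.7 ± 6.64 CPM in 6-month WT 2-day and 16.2 ± 1.65 CPM in 20-month WT 2-day cultures. Isg15 averaged 74.1 ± 16.7 CPM in 6-month KO and 52.0 ± 4.50 CPM in 1-month KO cultures, beside 10.5 ± 3.73 CPM in 20-month WT, 3.98 ± 0.695 CPM in 1-month WT of the D1 title set, 13.2 ± 2.54 CPM in 6-month WT 2-day and 15.6 ± 2.08 CPM in 20-month WT 2-day cultures. The D1 libraries stood apart by Xist, with 13791 to 17522 counts, beside at most 9 in each of the other 27 libraries. These levels are given without a test.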
